A study of Mus musculus with 2 samples.

Results

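Caveolae are flask-shaped pits of the plasma membrane, and flotillins mark other flat, cholesterol-rich patches of it. Both are known as routes into the cell that do not use the clathrin coat. The caveolin proteins sit in the inner leaflet and form the bulb with the cavin coat proteins, the PACSIN proteins bend the membrane at the neck, and EHD2 forms a ring there that holds the pit at the surface. Flotillin 1 and flotillin 2 assemble with each other into complexes of their own. Caveolae also take up membrane stretch, and caveolin 3 is known as the muscle form.

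The set was made by gene symbol and held 8 of the 22156 genes in the deposited table, namely *Cav1*, *Cav2*, *Cav3*, *Ehd2*, *Pacsin2*, *Pacsin3*, *Flot1* and *Flot2*. Every symbol was found once. The set was chosen by symbol with the expected counts of both libraries in view, so these values are given as a description, with no test.

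RNA was sequenced from primary chondrocytes, the cells of cartilage, which came from newborn mice and were grown as a monolayer. The labels give rib cartilage as the tissue, whereas the study describes rib and articular cartilage. There was 1 control library and 1 *Myl3*-KO library, with no treatment of either. In the *Myl3*-KO mice a Cre recombinase driven by the *Col2a1* promoter deletes a floxed *Myl3* gene, which encodes a myosin light chain, so deletion is expected only in cells in which that promoter was active. The study describes the controls as floxed littermates without Cre, whereas the sample labels call them WT. The strain background was C57BL/6J, and how many animals went into a library is not given in the sources used here. The study links MYL3 to uptake through clathrin, and the genes described here were grouped under uptake that does without it. Whether each acts only there was not tested. No difference below has a replicate check.

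The control library summed to 17612434.91 expected counts and the *Myl3*-KO library to 13477976.98. *Myl3* had 0 counts in both, which leaves the labels unchecked by the targeted gene at this depth, and the control column, headed NC, was read as such because the other one is headed KO. Of 7 chondrocyte markers, *Acan*, *Matn1* and *Hapln1* were without a count in either library and *Col2a1* had 30 and 27 counts. *Comp* and *Col9a1* had at most 2 counts in a library, while *Sox9*, which encodes a transcription factor of cartilage, had 866 and 480 counts, or 11.9 and 8.61 FPKM. The fibroblast markers ranged from *Pdgfra*, at 1 and 1.58 FPKM, to *Col1a2*, at 2253 and 2630 FPKM. FPKM is the number of fragments per kilobase of transcript, scaled to a common library size. The matrix genes that define cartilage were thus absent or nearly so, and *Sox9* alone of this list was well counted. Reads of a whole culture cannot tell fewer cells of a type from less RNA per cell.

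*Cav1* and *Cav2* are neighbours on chromosome 6 of GRCm38 and are read from the same strand. *Cav2* (ENSMUSG00000000058) lies from 17281185 to 17289115 and *Cav1* (ENSMUSG00000007655) from 17306335 to 17341452, with 17219 bases between them. RefSeq promoter windows on GRCm38.p6, from 250 bases before to 50 after a start, were found for 7 of the 8 genes. They are shown for the neighbours *Cav2* and *Cav1*, whose RNA differed in opposite directions, and for *Cav3*, which was hardly detected. Capitals mark the GC box, GGGCGG on either strand.

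Cav2, chr6:17280935-17281234, + strand: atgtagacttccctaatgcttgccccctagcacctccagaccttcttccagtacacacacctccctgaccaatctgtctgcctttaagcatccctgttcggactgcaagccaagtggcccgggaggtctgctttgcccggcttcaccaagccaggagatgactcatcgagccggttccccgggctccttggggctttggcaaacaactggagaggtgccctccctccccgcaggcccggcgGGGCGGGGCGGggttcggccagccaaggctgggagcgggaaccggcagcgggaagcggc

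Cav1, chr6:17306085-17306384, + strand: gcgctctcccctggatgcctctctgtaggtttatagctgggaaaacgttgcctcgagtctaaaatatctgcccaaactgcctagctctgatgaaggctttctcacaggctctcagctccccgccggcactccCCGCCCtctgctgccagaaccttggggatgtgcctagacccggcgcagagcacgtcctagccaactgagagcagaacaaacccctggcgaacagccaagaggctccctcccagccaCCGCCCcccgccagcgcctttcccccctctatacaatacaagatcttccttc

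Cav3, chr6:112459255-112459554, + strand: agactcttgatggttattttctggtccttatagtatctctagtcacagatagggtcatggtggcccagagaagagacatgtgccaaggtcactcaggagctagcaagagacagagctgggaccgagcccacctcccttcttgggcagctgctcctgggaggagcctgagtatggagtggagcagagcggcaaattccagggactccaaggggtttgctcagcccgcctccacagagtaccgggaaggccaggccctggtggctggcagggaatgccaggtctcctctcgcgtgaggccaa

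The *Cav2* window held 2 GC boxes, which share a base and begin at -9 and -4, counted in bases from the start. The *Cav1* window also held 2, at -118 and -2. The window of a later *Cav1* start, those of later *Pacsin2* starts and that of *Cav3* held 0. At least 2 GC boxes were found in 7 of the 11 windows of these genes, some of which have several starts, and in 19.5% of all 32851 promoter windows. Those 7 windows were 58.7% to 69.7% G and C, whereas the median over all windows was 52.7%. The TATA box, TATAAA, occurred once, at -221 of *Cav1* on the opposite strand, and in 13.6% of all windows. The sterol element TCACNCCAC, searched on both strands, occurred in 0 of the 11 windows of these genes and in 1.24% of all windows. These matches are descriptions of the letters alone.

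Within each library the genes spanned a wide range of RNA levels. *Cav1*, which encodes the main structural protein of caveolae, was the highest, at 117 FPKM in the control (95% Poisson interval of its counts 114 to 121) and 125 FPKM in *Myl3*-KO (121 to 128). It ranked 653rd and 552nd by FPKM among all genes of the table. *Cav2*, whose product joins caveolin 1 in mixed oligomers, was at 40.6 FPKM in the control (38.7 to 42.5) and 28.4 FPKM in *Myl3*-KO (26.6 to 30.2). *Cav3* was listed at 0 in the control and had 1 count in *Myl3*-KO, or 0.06 FPKM. Both values are under the floor of 3 counts, so no ratio is given. In CPM, counts scaled to a common library total, that floor is 0.170 for the control and 0.223 for *Myl3*-KO. In both libraries the caveolin RNA thus came from *Cav1* and *Cav2*.

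The neck genes were lower than *Cav1*. *Ehd2*, which encodes the ring-forming ATPase, was at 23.6 FPKM in the control and 26.2 FPKM in *Myl3*-KO. *Pacsin2*, which encodes the widely expressed membrane-bending PACSIN, was at 24.0 and 24.4 FPKM. *Pacsin3*, the relative known from muscle, was at 11.03 FPKM in the control (9.86 to 12.3) and 16.4 FPKM in *Myl3*-KO (14.7 to 18.1). The flotillins were unequal to each other. *Flot2* was at 39.1 FPKM in the control (37.3 to 41.0) and 47.4 FPKM in *Myl3*-KO (45.2 to 49.7), and *Flot1* was at 6.35 FPKM (5.51 to 7.28) and 8.78 FPKM (7.65 to 10.0).

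By level, the order in the control was *Cav1*, *Cav2*, *Flot2*, *Pacsin2*, *Ehd2*, *Pacsin3*, *Flot1* and *Cav3*. In *Myl3*-KO it was *Cav1*, *Flot2*, *Cav2*, *Ehd2*, *Pacsin2*, *Pacsin3*, *Flot1* and *Cav3*. The intervals of *Cav2* and *Flot2* overlapped in the control and lay apart in *Myl3*-KO. Those of *Pacsin2* and *Ehd2* overlapped in both libraries, and those of *Cav2* and *Ehd2* overlapped in *Myl3*-KO. All other neighbours in the order were separated by more than the counting error.

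**Figure D1:**
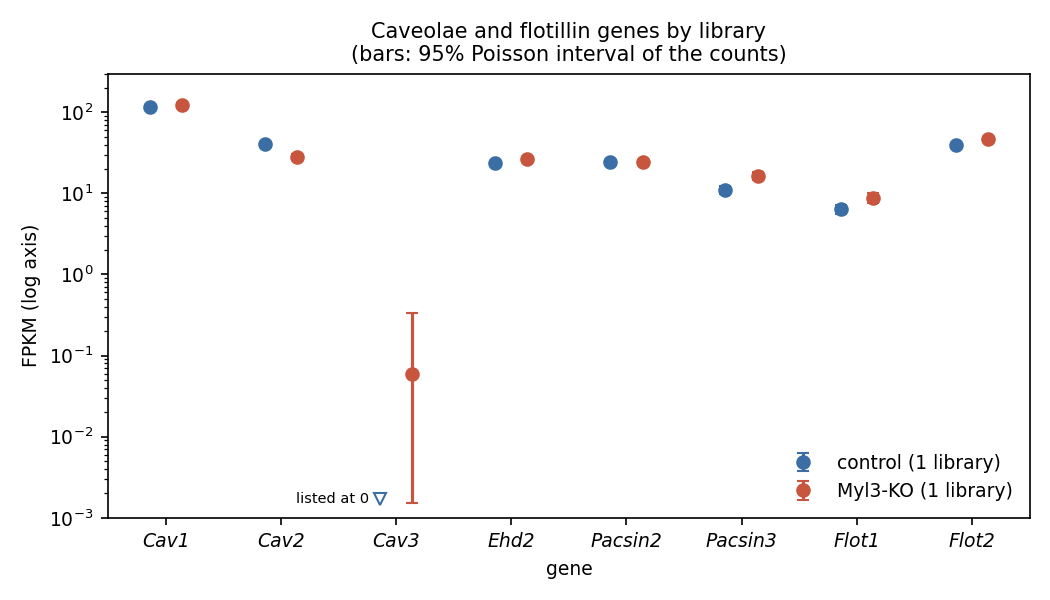
FPKM on a log axis for each gene, with the control library in blue and the *Myl3*-KO library in red; bars are 95% Poisson intervals of the counts and the triangle marks a gene listed at 0. *Cav1* is the highest in both libraries at 117 and 125 FPKM, *Cav2* is the only gene above 1 FPKM that is lower in *Myl3*-KO, and *Cav3* is near 0.

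Next, the libraries were compared by the log2 ratio of CPM, *Myl3*-KO over control, with 95% Clopper-Pearson intervals that cover counting error only. A gene needed at least 10 counts summed over the libraries to enter, which left in 7 of the 8 and left out *Cav3*. A log2 ratio of at least 0.5 in size, or 1.41-fold, was called past the limit. Of the 7 genes, 1 was past it, on the higher side in *Myl3*-KO. Over all 12431 genes compared, 11.7% were past it in either direction and 7.99% on the higher side. A limit of 1 left 0 of the 7 genes (3.35% of all genes compared), and a limit of 0.25 left 4 (34.3% of all). The interval lay above 0 for 5 genes, where 22.2% of all genes had one, below 0 for 1 gene, where 20.1% had one, and included 0 for 1. In either direction 42.4% of all genes had an interval that left out 0, a share that grows with depth. The median log2 ratio was 0.19 for the 7 genes and 0.02 for all genes compared.

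Among the caveolins, the RNA of *Cav2* was lower and that of *Cav1* slightly higher in *Myl3*-KO. *Cav2* went from 1730 counts in the control library to 994, or 98.2 and 73.7 CPM. Its log2 ratio was -0.41 (interval -0.53 to -0.30), which is 0.751-fold and inside the limit. *Cav1* had 4971 and 4112 counts, or 282 and 305 CPM, a log2 ratio of 0.11 (interval 0.05 to 0.17). These ratios lay on either side of 0 by more than the counting error.

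The ratio of one neighbour to the other does not depend on how the libraries are scaled. In the control there were 2.87 *Cav1* counts for each *Cav2* count (95% Clopper-Pearson interval 2.72 to 3.04), and in *Myl3*-KO there were 4.14 (3.86 to 4.44). The log2 difference between the genes was 0.53 (large-count interval 0.40 to 0.65). Per length, *Cav1* made up 74.3% of the summed FPKM of *Cav1* and *Cav2* in the control and 81.4% in *Myl3*-KO. The nearest counted genes outside the pair were closer to 0. *Tes*, before *Cav2*, had 1770 and 1439 counts (log2 ratio 0.09, interval -0.01 to 0.19), and *Met*, after *Cav1*, had 555 and 417 counts (log2 ratio -0.03, interval -0.21 to 0.16).

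The size of the *Cav2* difference depended on the unit. By FPKM its log2 ratio was -0.52, past the limit, against -0.41 by counts. The counts per FPKM of *Cav2*, which track the transcript length assigned to a gene, were 1.07 times as high in *Myl3*-KO as in the control once the median gene was set to 1. Such a value differed from 1 by more than 5% in 11.5% of the 8352 genes with at least 5 FPKM in both libraries. For the other 6 genes compared it lay between 0.988 and 1.03. GENCODE M21 lists 3 transcripts of *Cav2* and 10 of *Cav1*, and the table does not divide the counts among them. The antisense gene *Gm15581* spans *Cav1* and *Cav2* without overlapping their exons and is not in the table.

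*Pacsin3* (ENSMUSG00000027257, chromosome 2 from 91255954 to 91264679) showed the highest ratio of the set. Its counts were 325 in the control library and 365 in the other, or 18.5 and 27.1 CPM, a log2 ratio of 0.55 (interval 0.33 to 0.77). The lower end of the interval lies inside the limit. *Pacsin2* (chromosome 15 from 83375607 to 83464606) had 1470 and 1144 counts, or 83.5 and 84.9 CPM, and a log2 ratio of 0.02 (interval -0.09 to 0.14). There were 4.52 *Pacsin2* counts for each *Pacsin3* count in the control (4.01 to 5.12) and 3.13 in *Myl3*-KO (2.78 to 3.54), so the ratio of these relatives differed by more than the counting error as well. The exons of *Pacsin3* overlap those of the noncoding gene *Gm17281* on the other strand. Since the strand setting is not given in the sources used here, reads of *Pacsin3* and *Gm17281* cannot be told apart.

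*Ehd2* (chromosome 7 from 15946958 to 15967567) had 2068 and 1806 counts, or 117 and 134 CPM. Its log2 ratio was 0.19 (interval 0.10 to 0.28), inside the limit and above 0. Its relative *Ehd1*, which encodes a recycling ATPase, had a log2 ratio of 0.02 (interval -0.09 to 0.13).

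Both flotillin genes were higher in *Myl3*-KO, and neither reached the limit. *Flot1* (chromosome 17 from 35823230 to 35832791) had 204 and 216 counts, or 11.6 and 16.0 CPM, with a log2 ratio of 0.47 (interval 0.19 to 0.75). *Flot2* (chromosome 11 from 78037931 to 78060434) had 1810 and 1679 counts, or 103 and 125 CPM, with a log2 ratio of 0.28 (interval 0.18 to 0.37). There were 8.87 *Flot2* counts for each *Flot1* count in the control (7.67 to 10.3) and 7.77 in *Myl3*-KO (6.74 to 8.998), and these intervals overlapped. Summed over both genes, the flotillins were at 114 CPM and 141 CPM, whereas the caveolins summed to 380 and 379 CPM.

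**Figure D2:**
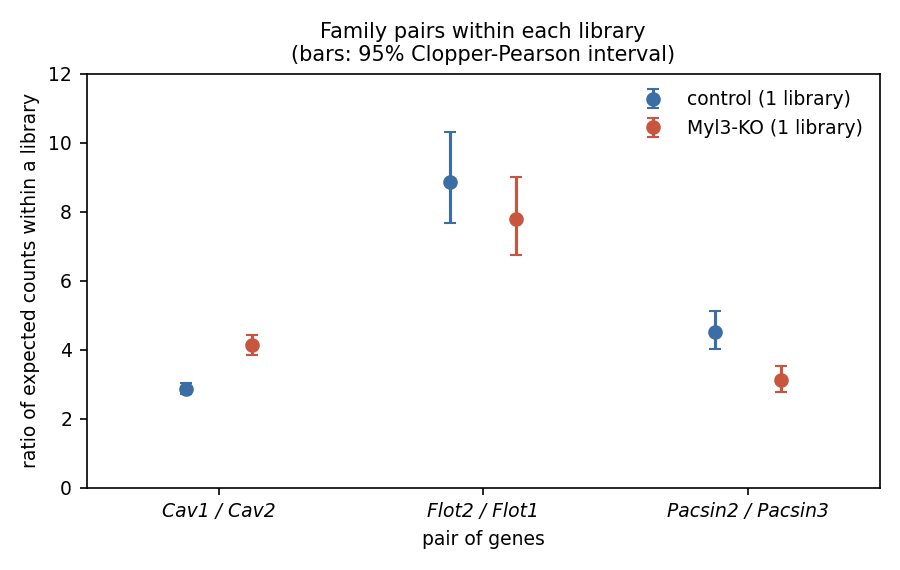
Expected counts of one gene divided by those of its relative within a library, control in blue and *Myl3*-KO in red, with 95% Clopper-Pearson intervals. *Cav1* over *Cav2* goes from 2.87 to 4.14 and *Pacsin2* over *Pacsin3* from 4.52 to 3.13 without overlap, while the intervals of *Flot2* over *Flot1* overlap.

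Depth sets how these ratios read. The 7 genes had between 420 and 9083 counts over both libraries, and 8033 genes lay in this range. Their log2 ratios had quartiles of -0.14 and 0.15, 2.70% of them were past the limit of 0.5, and 50.9% had an interval that left out 0, as had 6 of the 7 genes. *Cav1* and *Pacsin2* lay between these quartiles, *Cav2* below them, and *Ehd2*, *Flot2*, *Flot1* and *Pacsin3* above them. Genes close to a member by FPKM in both libraries were numerous, as a pattern over 2 libraries holds little. Within 0.1 in log2 FPKM, 16 genes lay near *Cav1*, the closest being *Slc3a2*, *U2af2* and *Dap* at distances of 0.013, 0.030 and 0.034. Near *Flot1* there were 31, the closest being *Hoxb5*, *Acsf3* and *Gramd1a* at 0.018, 0.024 and 0.033.

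**Figure D3:**
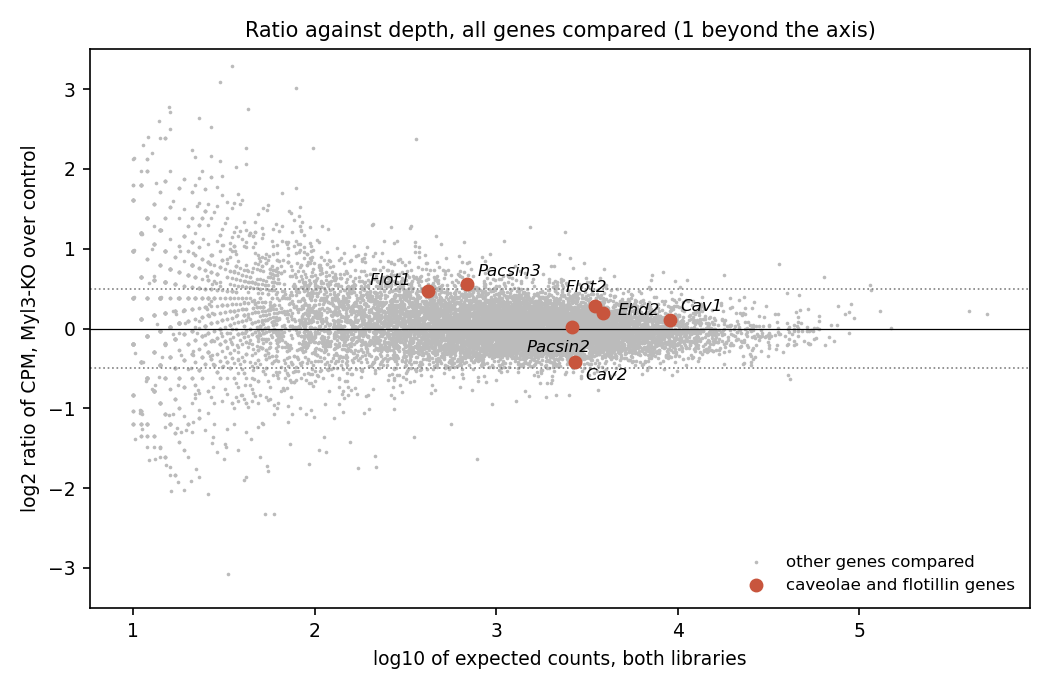
Log2 ratio of CPM, *Myl3*-KO over control, against the log10 of expected counts over both libraries, for all genes compared (grey) and the caveolae and flotillin genes (red); dotted lines mark a log2 ratio of 0.5 in size and 1 gene lies beyond the axis. *Pacsin3* is above the upper line at 0.55, and *Cav2* at -0.41 is above the lower one.

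The partners of these genes were then examined from lists written with earlier results of the data known. Of 10 caveola coat and neck partners, 8 were compared, and 1 was past the limit, where 11.7% of all genes compared were. The cavins, which coat the bulb, had ratios close to 0 where they were well counted. *Cavin1*, the coat protein needed to form caveolae, had 6687 and 5393 counts (log2 ratio 0.08, interval 0.02 to 0.13), and its FPKM of 109 in the control and 115 in *Myl3*-KO was close to that of *Cav1*. There were 0.743 *Cav1* counts for each *Cavin1* count in the control (0.716 to 0.771) and 0.762 in *Myl3*-KO (0.732 to 0.794). *Cavin3* had a log2 ratio of 0.10 (interval -0.05 to 0.24). *Cavin2* was the partner past the limit, at -0.67, but it rested on 52 and 25 counts and its interval of -1.42 to 0.04 included 0. *Flna*, which encodes the actin crosslinker filamin A that ties caveolae to stress fibres, had the highest ratio of this list at 0.42 (interval 0.39 to 0.45). *Ehd3* and *Pacsin1* had no counts at all.

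*Cavin4*, known as the muscle cavin, was at 26.8 FPKM in the control and 28.03 FPKM in *Myl3*-KO, with 968 and 776 counts. *Cav3*, known as the muscle caveolin, was near 0 in the same libraries. Of 7 skeletal muscle markers, 4 had 0 counts in both libraries (*Myod1*, *Myog*, *Des* and *Ckm*), and the others were at no more than 0.20 FPKM in the control (*Acta1*) and 0.08 FPKM in *Myl3*-KO (*Tnnt3*). No gene of GENCODE M21 overlaps *Cavin4* on chromosome 4 from 48663514 to 48673502.

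The relatives of the flotillins by their SPFH domain, a membrane-binding fold shared with stomatins and prohibitins, were then set beside them. Of 9 such genes, 7 were compared, and 0 were past the limit, where 11.7% of all genes compared were. A log2 ratio below 0 was found for 6 of the 7, and for 5878 of all 12431 genes compared. The interval lay below 0 for 4 of them, where 20.1% of all genes had one, namely the prohibitin genes *Phb* (-0.36) and *Phb2* (-0.12), *Erlin1* (-0.32) of the endoplasmic reticulum and *Stoml2* (-0.24) of the mitochondria. All 4 held between 420 and 9083 counts over both libraries, where 50.9% of genes had an interval that left out 0 in either direction. The median of the 7 SPFH genes compared was -0.21, whereas *Flot1* and *Flot2* were at 0.47 and 0.28. *Stom*, which encodes the plasma membrane protein stomatin, had 191 and 126 counts and a log2 ratio of -0.21 (interval -0.55 to 0.12).

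**Figure D4:**
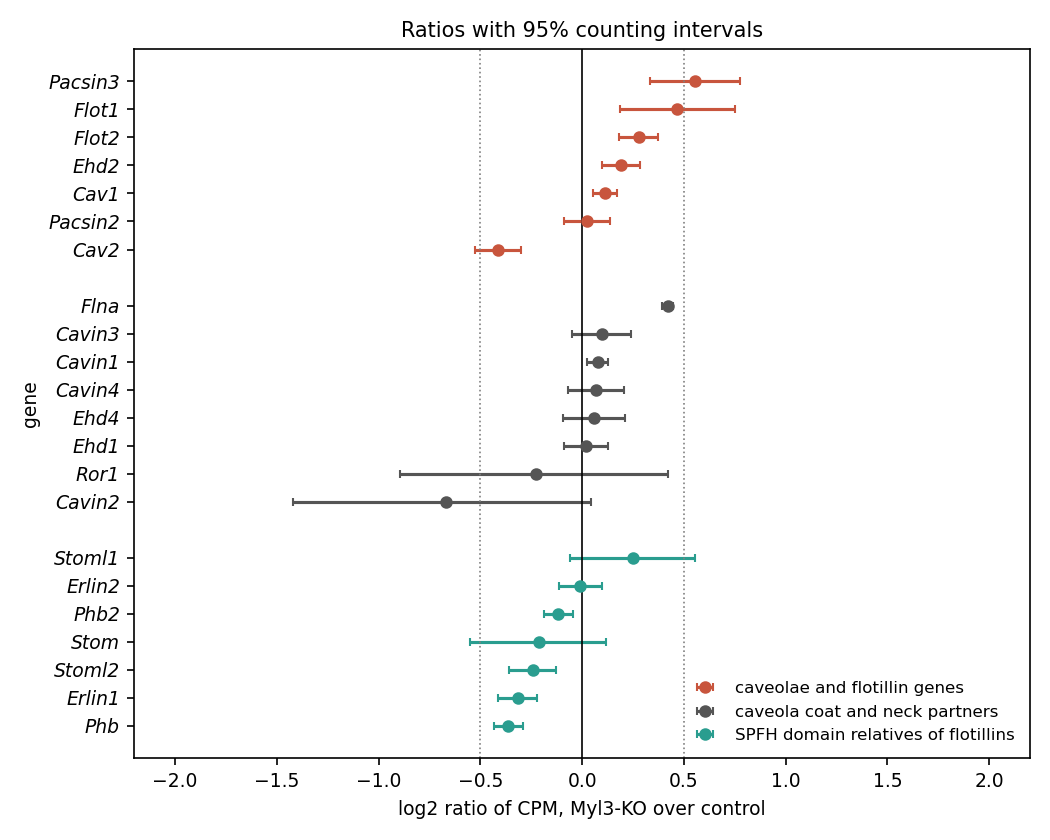
Log2 ratio of CPM, *Myl3*-KO over control, with 95% counting intervals for the caveolae and flotillin genes (red), the caveola coat and neck partners (grey) and the SPFH domain relatives of the flotillins (green); dotted lines mark 0.5 in size. *Cav2* stands apart at -0.41 from *Cavin1*, *Cavin3* and *Cavin4*, which lie between 0.07 and 0.10. *Cavin2*, at -0.67, has a wide interval of -1.42 to 0.04 that takes in the *Cav2* ratio. The intervals of *Phb*, *Erlin1*, *Stoml2* and *Phb2* lie below 0.

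Markers of endothelial cells and adipocytes, which are rich in caveolae, were scarce, whereas some mural cell and fibroblast markers were well counted. The 6 endothelial markers summed to 0.397 and 0.890 CPM, with *Cdh5*, *Emcn* and *Cldn5* at 0 in both, and the 4 adipocyte markers summed to 0.341 and 0.223 CPM, with *Plin1* and *Lep* at 0. Mural cell markers are those of smooth muscle cells and pericytes. Their 4 genes summed to 230 and 371 CPM, mostly through *Pdgfrb* (log2 ratio 0.71, interval 0.65 to 0.77). *Cspg4* was higher as well (log2 ratio 0.48, interval 0.26 to 0.69). The other markers of this list were scarce, as *Rgs5* had 7 and 14 counts and *Myh11*, which was not compared, had 7 and 2. Fibroblast markers went both ways among their 6 genes, with *Dcn* at -1.64, *Lum* at -1.36 and *Pdgfra* at 0.61, and their sum was 13596 and 15651 CPM. The part of these cells in the ratios of *Cav2*, *Pacsin3*, *Flot1* and *Flot2* was not tested.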

How the data were processed

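The authors deposited, for each of 22156 genes, an expected count, that is the estimated number of reads without normalization, and an FPKM value scaled by length and library, in 1 control and 1 *Myl3*-KO library. Of the expected counts, 1438 and 1388 were not whole. The submitters' processing notes name the builds GRCm38 and mm10. The aligner, counter and strand setting are not given in the sources used here. The labels name a SMARTER kit, whereas the study describes random-primed cDNA.

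CPM is the count over the library total, and counts under 3 were raised to 3 for a ratio. Counts were rounded for 95% Clopper-Pearson and Poisson intervals, which cover counting error only. Genes were compared where the libraries together held at least 10 counts. With 1 library per group no test was possible, and no p-value was computed. The large-count interval of a difference comes from the summed inverse counts of 4 values. The ratio and its interval were tested on simulated Poisson counts. These hold no spread between cultures or animals, so they cannot show how the interval covers such spread.

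The members and lists were chosen with earlier results of these data known. The genes named are the members, the genes of the lists, *Myl3*, genes that overlap a member or lie next to *Cav1* or *Cav2*, and the 3 genes nearest to *Cav1* and to *Flot1* by FPKM. Overlap with *Cavin4* was looked up after its value was seen. Gene positions are those of GENCODE M21 (GRCm38), possibly not the authors' annotation, and promoters from RefSeq on GRCm38.p6. The deposited annotation named caveolae, caveolin or flotillin for 9 genes, in the description column alone. These are the caveolin, cavin and flotillin genes, of which 8 were compared, with a median log2 ratio of 0.09. Of these, 1 was past the limit, where 11.7% of all genes compared were.

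Alternatives were TMM factors, DESeq2 size factors, 1 added count, the FPKM ratio, other filters on low counts and limits of 0.25 and 1. Scaling factors came from DESeq2 1.42.0 and edgeR 4.0.16 in R 4.3.3, and all else from Python 3.11.15 (scipy 1.17.1, numpy 2.4.6, pandas 2.3.3), with plots by matplotlib 3.10.9.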

Additional observations from a re-analysis of the deposited data

How the results depend on the processing

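The count of caveolae and flotillin genes past the limit was 1 as reported. It was 2 with the FPKM ratio, when *Cav2* at -0.52 joined *Pacsin3*, 0 with the limit at 1 and 4 with it at 0.25. With the limit at 1, 3.35% of all genes compared were past it, and with 0.25, 34.3% were. The other 43 of the 46 recomputed values stayed close to those reported. That is, the log2 ratio of a gene stayed within its counting interval, and the median of the 7 genes within that of the gene at the median. A count stayed within 1.5 times the reported one. A change of direction was looked for only in genes past the limit, here *Pacsin3* alone, whose recomputed log2 ratios lay between 0.54 and 0.57. TMM factors moved the median of all genes by -0.02. The 6 genes of the uptake lists past the limit were 9 with a limit of 0.25. Leaving out a library leaves no comparison. Spread between cultures, animals or library preparations is not measured here, and *Flot1* and *Pacsin3* rest on the fewest counts of the genes compared. No paired analysis was possible because there is 1 library per group.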

Other observations

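The lists of other genes tied to uptake without clathrin had a median log2 ratio of 0.06 together. Some of these genes were listed as relatives, kinases or receptors and are not uptake genes as such. Over all 57 genes of these lists, caveola partners and SPFH relatives included, 48 were compared. Of these, 6 were past the limit of 0.5, 2 higher and 4 lower in *Myl3*-KO. That is close to the 11.7% of all genes compared that were past it. The intervals of the 4 lower genes (*Cavin2*, *Sh3gl3*, *Nos3* and *Ly6c1*) all included 0, whereas those of the 2 higher ones lay above 0. Among 7 genes of CLIC/GEEC carriers, the tubular carriers that bring in fluid and GPI-anchored proteins, the 2 past the limit were both higher. Over all genes compared, 7.99% were past it on that side. The list had 5 genes above 0 and 2 below, with a median log2 ratio of 0.09. *Arhgap26*, which encodes the GRAF1 protein of these carriers, went from 76 to 106 counts, with a log2 ratio of 0.87 (interval 0.43 to 1.31). *Baiap2*, which encodes the curved adaptor IRSp53, had 1912 and 2133 counts and a log2 ratio of 0.54 (interval 0.45 to 0.63). In the same list *Cdc42*, the GTPase that drives these carriers, was at -0.22 (interval -0.28 to -0.16) and *Arf1* at -0.04.

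Of 8 endophilin and F-BAR genes 7 were compared, with a median log2 ratio of 0.07, and *Sh3gl3* at -0.74 rested on 48 and 22 counts. All 6 genes of Arf6 and macropinocytosis were compared and lay between -0.13 (*Arf6*) and 0.16 (*Pak1*). Among 10 raft-associated kinases and receptors, *Src*, *Abl1*, *Insr* and *Tgfbr1* lay between 0.21 and 0.23 with intervals above 0, *Yes1* was at -0.19 with an interval below 0, and *Nos3* at -1.30 rested on 14 and 4.35 counts. Of 7 GPI-anchored raft proteins 4 were compared, *Prnp* was at 0.14 (interval 0.05 to 0.22), *Ly6c1* went from 14 to 4 counts, and *Thy1* and *Folr1* had 0 counts in both libraries. Of 4 immune markers, *Cd68* was the most counted, with 18 and 16 counts, and *Sox9* of the chondrocyte markers was at -0.47 (interval -0.63 to -0.30).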
